A study of Homo sapiens with 9 samples.

Results

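The genes described here are 10 regulators of the G1 phase of the cell cycle, chosen by symbol: the cyclin genes CCND1, CCND2, CCND3, CCNE1 and CCNE2, the kinase genes CDK4 and CDK6, the CDK inhibitor genes CDKN1B (p27) and CDKN2C (p18), and the retinoblastoma gene RB1. All probes that the platform annotation pairs with 1 of these symbols were taken. They were 12 of the 47310 probes on the array and covered 9 of the 10 genes, since no probe was paired with CDKN2C, which is not analysed here. Of the 12 probes, 10 passed the detection filter (3 or more arrays with a detection p-value under 0.05), and these measured 8 genes. The probe of CCNE2 and 1 of the 2 probes of CCNE1 did not pass.

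RNA came from HEK293T, a human embryonic kidney line that carries the adenoviral E1A and SV40 large T genes. The cells were transfected with the plasmid pRK5 encoding the LAV form of BPIFB4 (LAV-BPIFB4), with pRK5 encoding its wild-type form (WT-BPIFB4), or with an empty plasmid (empty vector), and each group had 3 arrays. All 3 groups, the empty vector included, received the lipid transfection reagent and were then serum-starved for 18 hours, beginning 24 hours after transfection, so starved cells were not compared with fed ones. Whether the triplicates were separate transfections is not stated, and p-values therefore measure the spread between these samples, which may be technical.

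In G1, D-type cyclins bind CDK4 or CDK6 and begin to phosphorylate the retinoblastoma protein, and E-type cyclins with CDK2 complete this step. Phosphorylated RB releases E2F transcription factors, which switch on genes for DNA replication. The inhibitors p27, which acts on CDK2 complexes, and p18, which binds CDK4 and CDK6, hold cells in G1 or in quiescence, and mitogens in serum generally raise D cyclins and lower p27. E1A and large T antigen both bind RB, so in HEK293T cells this checkpoint is already partly bypassed.

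The median signal per array was 93.1 to 139, and each array detected 18940 to 20658 probes. All 9 arrays lay on 1 chip with each group in neighbouring positions, so a group's effect and its chip position cannot be told apart. On the first principal component (31.8% of the variance) the LAV-BPIFB4 arrays lay at 19.7 to 25.2, the WT-BPIFB4 arrays at -12.3, 9.67 and 29.3 for replicates 1, 2 and 3, and the empty vector arrays at -32.1 to -29.8. The single BPIFB4 probe was detected on 0 of the 9 arrays (detection p-value 0.474 to 0.896), and whether it lies within the transfected sequence is not known. Of 8 genes reported in HEK293 cells, 7 were measured, and of 8 genes of endothelial, blood or fibroblast cells, 2 were (CD14 and COL1A1, with signals of 134 to 238 and 101 to 167). The defining endothelial genes PECAM1, CDH5, VWF and KDR were detected on 0 arrays.

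CCND2, the gene of cyclin D2, was lower in cells with LAV-BPIFB4 than with the empty vector, and it was the single member called in any comparison. Its representative probe, the brightest of a gene's kept probes on average, read 11.11, 11.28 and 11.16 (log2 intensity) on the LAV-BPIFB4 arrays. It read 11.70, 11.48 and 11.18 with WT-BPIFB4, and 11.82, 11.87 and 11.80 with the empty vector. All LAV-BPIFB4 and all WT-BPIFB4 arrays were below all empty vector arrays, while the LAV-BPIFB4 and WT-BPIFB4 arrays overlapped.

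The group means for CCND2 were 11.18 ± 0.09 with LAV-BPIFB4, 11.46 ± 0.26 with WT-BPIFB4 and 11.83 ± 0.03 with the empty vector (SD, n = 3 each). The level fell 1.57-fold with LAV-BPIFB4 against the empty vector (log2 change -0.65, SE 0.12, 95% interval -0.90 to -0.39, limma adjusted p = 0.00355). With WT-BPIFB4 the log2 change was -0.38 (SE 0.12, interval -0.63 to -0.12) and was not called (limma adjusted p = 0.134). LAV-BPIFB4 against WT-BPIFB4 differed by -0.27 (SE 0.12, limma adjusted p = 0.972), so the 2 forms were not shown to act differently on CCND2. The F-test over the 3 groups called the gene (limma adjusted p = 0.0116).

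The log2 change of CCND2 with WT-BPIFB4 varied from -0.50 to -0.24 over 20 alternative settings, of which 2 called it. The WT-BPIFB4 arrays were spread, replicate 3 at 11.18 being the farthest from the empty vector. WT-BPIFB4 replicate 1, which on the first principal component was the array of its group nearest to the empty vector, also had the level of CCND2 closest to the empty vector. Without it the log2 change with WT-BPIFB4 was -0.50 and was called (limma adjusted p = 0.012). The part of that array's general position in the CCND2 value was not tested.

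The other CCND2 probe pointed the same way with a smaller change. It read 9.67, 10.09 and 10.12 with LAV-BPIFB4, 10.18, 10.15 and 10.08 with WT-BPIFB4 and 10.21, 10.36 and 10.39 with the empty vector. Again all arrays of both BPIFB4 groups were below all empty vector arrays. Its log2 change was -0.36 with LAV-BPIFB4 (SE 0.13, limma adjusted p = 0.106) and -0.18 with WT-BPIFB4 (SE 0.13, limma adjusted p = 0.55), and it was called in neither. With the mean of both probes the change with LAV-BPIFB4 was -0.50 and was called (limma adjusted p = 0.0145).

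**Figure D1:**
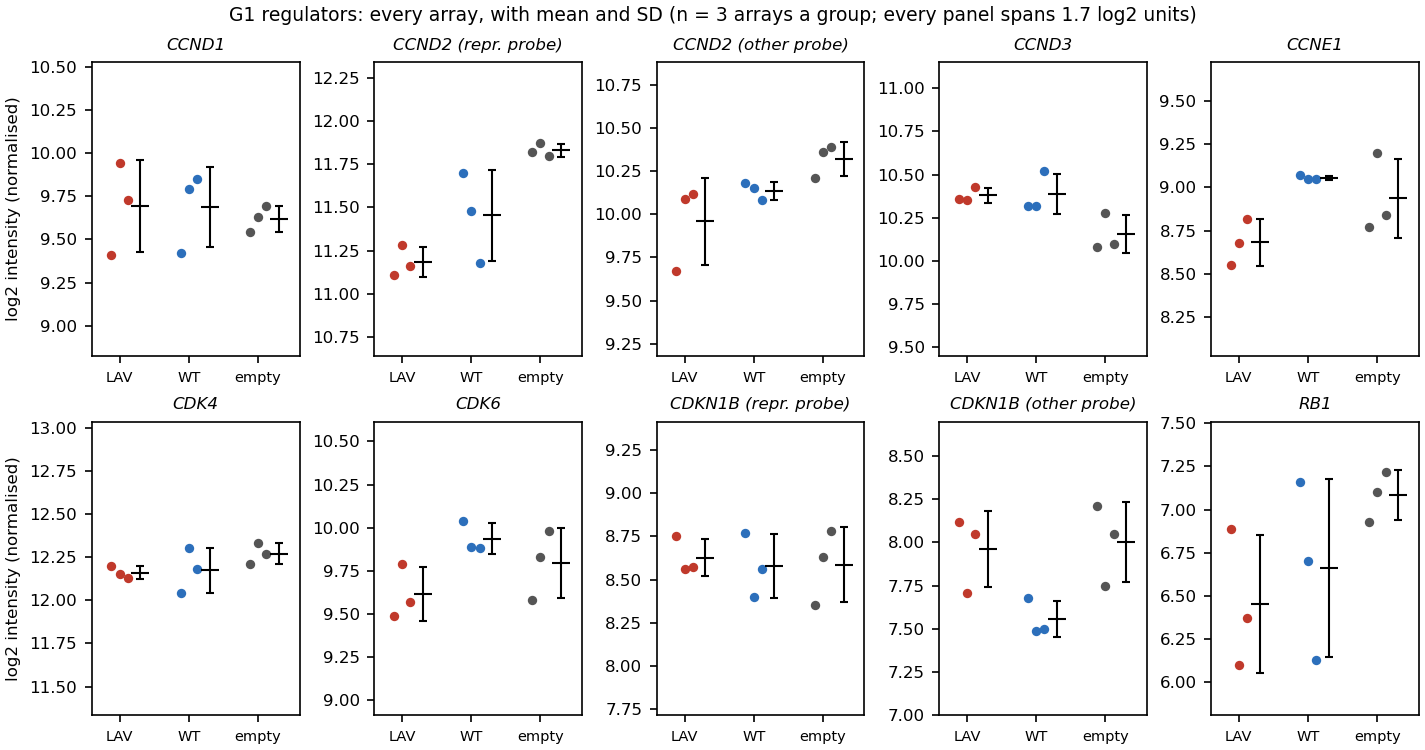
Normalised log2 intensity of the 10 kept probes on every array, with 1 panel per probe and the groups LAV-BPIFB4, WT-BPIFB4 and empty vector from left to right. Points are arrays, and the black marks are the mean and SD of 3 arrays. In the panel of the CCND2 representative probe, the LAV-BPIFB4 arrays lie at 11.11 to 11.28 and the empty vector arrays at 11.80 to 11.87.

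LAV-BPIFB4 gave 1 call among the 10 kept probes when set against the empty vector, and it was lower. Of all 20914 kept probes, 7.72% were called in that comparison, 3.64% higher and 4.08% lower, so the count of members called was near the background. With WT-BPIFB4 against the empty vector 0 of the 10 were called by limma, 2 having an unadjusted p under 0.05. Of all kept probes 1.07% were called, 0.607% higher and 0.464% lower, and 15.6% had an unadjusted p under 0.05. For LAV-BPIFB4 against the empty vector 3 of the 10 had an unadjusted p under 0.05, as had 23.9% of all. The F-test over the 3 groups called 1 of the 10 and 3.93% of all. LAV-BPIFB4 against WT-BPIFB4 gave 0 calls by limma among the members (4 with an unadjusted p under 0.05) and 0 among all kept probes (4.67% with an unadjusted p under 0.05). Groups did not overlap for 5 of the 10 probes with LAV-BPIFB4 against the empty vector (30.5% of all kept probes), for 4 with WT-BPIFB4 against the empty vector (17% of all) and for 3 between LAV-BPIFB4 and WT-BPIFB4 (10.1% of all). The median log2 change of the 10 probes was -0.15 with LAV-BPIFB4 and -0.06 with WT-BPIFB4 against the empty vector, beside 0.01 and 0.00 over all kept probes. The 2 comparisons with the empty vector share its 3 arrays.

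The other D cyclins were not called. CCND1, the gene of cyclin D1, read 9.41, 9.94 and 9.73 with LAV-BPIFB4, 9.42, 9.79 and 9.85 with WT-BPIFB4 and 9.54, 9.63 and 9.69 with the empty vector, so the groups overlapped throughout. Its log2 change was 0.07 with LAV-BPIFB4 (SE 0.15, interval -0.24 to 0.39, limma adjusted p = 0.816) and 0.07 with WT-BPIFB4 (interval -0.25 to 0.38, limma adjusted p = 0.87). The intervals do not reach the CCND2 change of -0.65.

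CCND3, the gene of cyclin D3, was above the empty vector on all 6 BPIFB4 arrays, without a call. It read 10.36, 10.35 and 10.43 with LAV-BPIFB4, 10.32, 10.32 and 10.52 with WT-BPIFB4 and 10.08, 10.28 and 10.10 with the empty vector. Its log2 change was 0.23 both with LAV-BPIFB4 (SE 0.12, interval -0.02 to 0.47, limma adjusted p = 0.258) and with WT-BPIFB4 (SE 0.12, interval -0.02 to 0.48, limma adjusted p = 0.357).

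CCNE1, the gene of the CDK2 partner cyclin E1, read 8.55, 8.68 and 8.82 with LAV-BPIFB4, 9.07, 9.05 and 9.05 with WT-BPIFB4 and 8.77, 9.20 and 8.84 with the empty vector. The LAV-BPIFB4 arrays were all below the WT-BPIFB4 arrays, and the empty vector arrays overlapped both. The difference between LAV-BPIFB4 and WT-BPIFB4 was -0.37 (SE 0.15, interval -0.68 to -0.06), with an unadjusted p of 0.0226 and a limma adjusted p of 0.972. Against the empty vector CCNE1 differed by -0.25 with LAV-BPIFB4 (limma adjusted p = 0.334) and by 0.12 with WT-BPIFB4 (limma adjusted p = 0.747). The other CCNE1 probe (detection p-value 0.0649 to 0.823) and the CCNE2 probe (0.374 to 0.995) were not above background on any of the 9 arrays, so no change is given for CCNE2, the gene of cyclin E2.

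The kinase genes that D cyclins act through showed no call. CDK4 read 12.20, 12.15 and 12.13 with LAV-BPIFB4, 12.04, 12.30 and 12.18 with WT-BPIFB4 and 12.21, 12.33 and 12.27 with the empty vector. Its change was -0.11 with LAV-BPIFB4 (SE 0.10, interval -0.32 to 0.10, limma adjusted p = 0.54) and -0.10 with WT-BPIFB4 (SE 0.10, interval -0.31 to 0.11, limma adjusted p = 0.685). The direction for CDK4 depended on the scaling, since with median scaling its change was 0.21 with LAV-BPIFB4 and 0.01 with WT-BPIFB4.

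CDK6 had a pattern like that of CCNE1. It read 9.49, 9.79 and 9.57 with LAV-BPIFB4, 10.04, 9.89 and 9.88 with WT-BPIFB4 and 9.58, 9.83 and 9.98 with the empty vector. All LAV-BPIFB4 arrays were below all WT-BPIFB4 arrays, a difference of -0.32 (SE 0.14, interval -0.61 to -0.04) with an unadjusted p of 0.0282 and a limma adjusted p of 0.972. Against the empty vector it differed by -0.18 with LAV-BPIFB4 and 0.14 with WT-BPIFB4, with overlapping groups (limma adjusted p = 0.457 and 0.663).

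The 2 kept probes of CDKN1B, the gene of the quiescence inhibitor p27, differed in the size of their change with WT-BPIFB4. The representative probe read 8.75, 8.56 and 8.57 with LAV-BPIFB4, 8.77, 8.40 and 8.56 with WT-BPIFB4 and 8.35, 8.63 and 8.78 with the empty vector, and changed by 0.04 and -0.01 (SE 0.16 each, limma adjusted p = 0.922 with LAV-BPIFB4 and 0.982 with WT-BPIFB4). The other probe read 8.12, 7.71 and 8.05 with LAV-BPIFB4, 7.68, 7.49 and 7.50 with WT-BPIFB4 and 8.21, 7.75 and 8.05 with the empty vector. There the WT-BPIFB4 arrays were below all others. Its log2 change was -0.45 with WT-BPIFB4 against the empty vector (SE 0.18, interval -0.83 to -0.07, unadjusted p = 0.0233, limma adjusted p = 0.235) and -0.04 with LAV-BPIFB4 (limma adjusted p = 0.915). Neither probe was called, and with WT-BPIFB4 the 2 give no single size of change for p27. Over 20 alternatives, the mean of both probes among them, the change of the representative probe with WT-BPIFB4 was -0.23 to 0.08. None of them called it.

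RB1, which encodes the retinoblastoma protein, had the widest SE of the 10 probes. It read 6.89, 6.10 and 6.37 with LAV-BPIFB4, 7.16, 6.70 and 6.13 with WT-BPIFB4 and 6.93, 7.10 and 7.22 with the empty vector. The highest LAV-BPIFB4 array, at 6.89, lay just below the lowest empty vector array, at 6.93, and the WT-BPIFB4 arrays overlapped both groups. The log2 change was -0.63 with LAV-BPIFB4 (SE 0.26, interval -1.17 to -0.09, unadjusted p = 0.0249, limma adjusted p = 0.144) and -0.42 with WT-BPIFB4 (SE 0.26, interval -0.96 to 0.12, limma adjusted p = 0.463). The RB1 change with LAV-BPIFB4 depended on the background step: it was -0.31 with no background correction, -0.47 with an offset of 50 and -0.35 with the second deposited table, within a range of -0.85 to -0.31 over 19 alternatives, none of which called it. Its non-normalized signal was 142 to 247, where the median signal per array was 93.1 to 139, so it was measured nearer to background than CCND2, at 2007 to 3978.

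**Figure D2:**
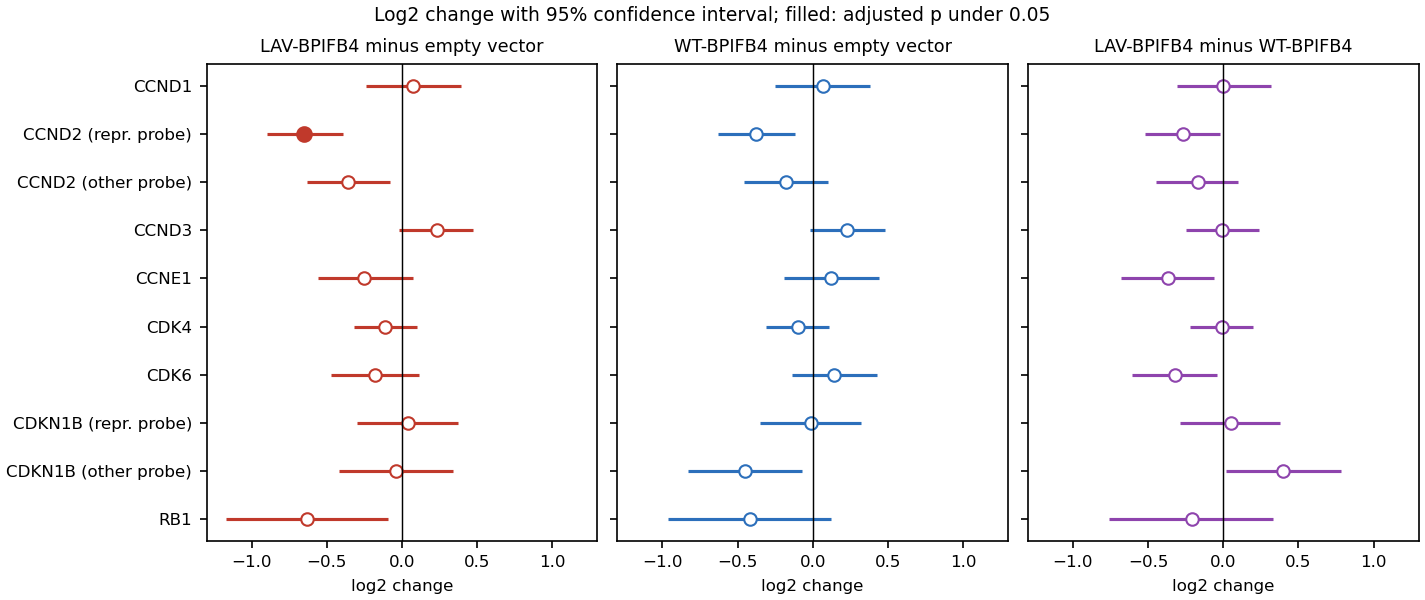
Log2 change of the 10 kept probes (rows) in the 3 comparisons (panels), with 95% confidence intervals from the limma fit. The filled point is the 1 probe with an adjusted p under 0.05, the CCND2 representative probe with LAV-BPIFB4 against the empty vector at -0.65, and all other points are open.

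The CCND2 call with LAV-BPIFB4 held in 17 of 20 alternative settings, its log2 change being -0.69 to -0.35 over all of them. It held without each of the 9 arrays in turn. It was lost with median scaling (log2 change -0.35, limma adjusted p = 0.557), with the second deposited intensity table (-0.41, limma adjusted p = 0.0806), whose columns for LAV-BPIFB4 fit no single array, and without the intensity trend in the variance (-0.65, limma adjusted p = 0.0737).

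**Figure D3:**
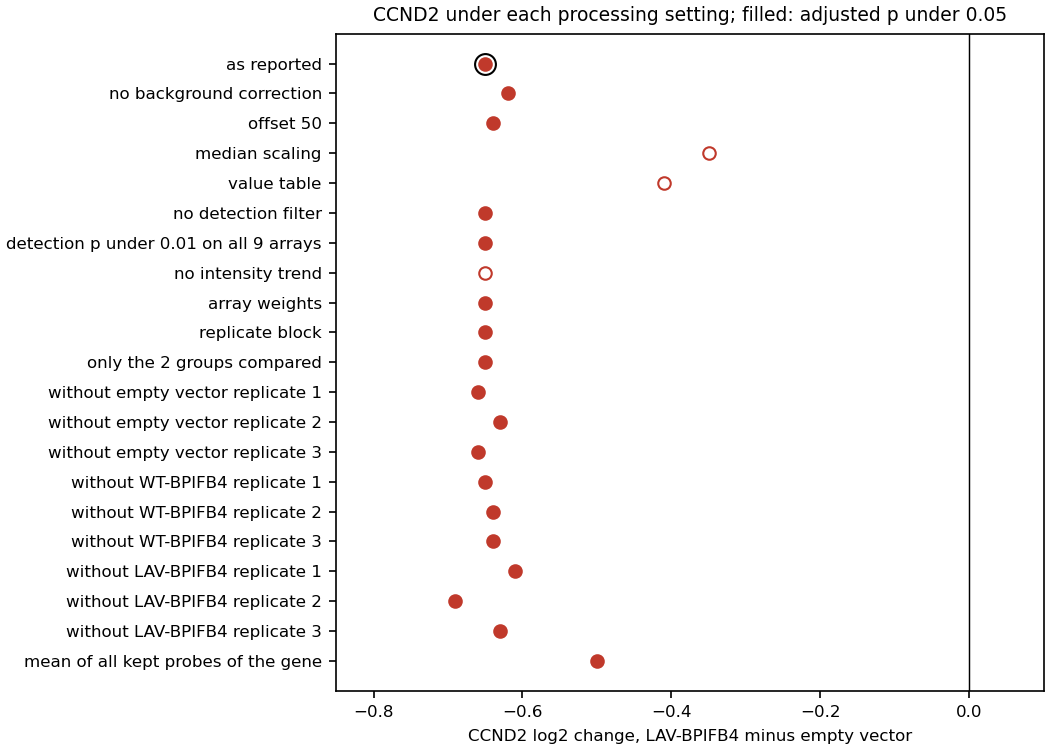
Log2 change of the CCND2 representative probe, LAV-BPIFB4 minus empty vector, under each processing setting (rows). Filled points have a limma adjusted p under 0.05. The 3 open points are median scaling, the value table and the fit without an intensity trend, and all points lie between -0.69 and -0.35.

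Over the 9 arrays, the genes whose pattern was most like that of CCND2 among 11829 other measured genes were SIX4, a homeobox gene (Pearson r = 0.995), PLCL2, a phospholipase C-like gene (0.992), and BCKDHB, a subunit gene of the branched-chain keto acid dehydrogenase (0.987). SIX4 read 8.88, 9.16 and 8.95 with LAV-BPIFB4, 9.72, 9.47 and 9.10 with WT-BPIFB4 and 9.88, 9.97 and 9.80 with the empty vector. In this gene, too, replicate 1 was the WT-BPIFB4 array closest to the empty vector. SIX4 fell 1.85-fold with LAV-BPIFB4 (log2 change -0.89, SE 0.15, limma adjusted p = 0.00198), and PLCL2 and BCKDHB fell 1.54-fold each (limma adjusted p = 0.0188 and 0.0471). These correlations are the highest of many and are given as a description.

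Among the other genes of the G1/S pathway, 4 rose with LAV-BPIFB4 and 1 fell of 74 measured in 7 lists, and 69 were not called. These 5 are 6.76% of the 74, and 9.01% of all 11830 measured genes were called in that comparison. With WT-BPIFB4 2 rose and 0 fell of the 74, which is 2.70%, beside 1.3% of all genes. LAV-BPIFB4 against WT-BPIFB4 gave 0 calls by limma. The median log2 change of the 74 genes was -0.07 with LAV-BPIFB4 and -0.03 with WT-BPIFB4, and over all measured genes it was -0.00 and 0.01.

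E2F2, which encodes an activator E2F released by RB, was higher in both BPIFB4 groups. It read 10.19, 10.53 and 10.26 with LAV-BPIFB4, 10.22, 10.26 and 10.12 with WT-BPIFB4 and 9.02, 9.68 and 9.25 with the empty vector, with no overlap between either BPIFB4 group and the empty vector. E2F2 rose 2.01-fold with LAV-BPIFB4 (log2 change 1.01, SE 0.15, limma adjusted p = 0.000563) and 1.85-fold with WT-BPIFB4 (0.88, SE 0.15, limma adjusted p = 0.00355). The call with LAV-BPIFB4 held in all 19 alternatives run for it, and the call with WT-BPIFB4 was lost with median scaling (0.84, limma adjusted p = 0.257) and without the intensity trend (limma adjusted p = 0.117). Of the 12 genes in the list of pocket proteins and E2F factors, the other 11 were not called in any comparison. They included E2F1, another activator (0.50 with LAV-BPIFB4, limma adjusted p = 0.292), the RB relatives RBL1 and RBL2 (0.27 and -0.27, limma adjusted p = 0.531 and 0.319), and TFDP1, an E2F dimer partner (-0.17, limma adjusted p = 0.434). The E2F1 signal of 114 to 249 was near background, and its groups overlapped. E2F3 and E2F7 went the other way from E2F2 with LAV-BPIFB4 (-0.18 and -0.54, limma adjusted p = 0.348 and 0.0548). The median log2 change of the 12 genes was -0.03 with LAV-BPIFB4.

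CDT1, which loads the replicative helicase on DNA in G1, read 10.71, 10.71 and 10.70 with LAV-BPIFB4, 10.68, 10.72 and 10.78 with WT-BPIFB4 and 9.89, 10.25 and 9.87 with the empty vector. CDC25A, a phosphatase that activates CDK2, read 11.38, 11.29 and 11.50 with LAV-BPIFB4, 11.37, 11.22 and 11.47 with WT-BPIFB4 and 10.92, 10.92 and 11 with the empty vector. Both genes were higher on all 6 BPIFB4 arrays than on any empty vector array. CDT1 rose 1.63-fold with LAV-BPIFB4 (limma adjusted p = 0.00199) and 1.65-fold with WT-BPIFB4 (limma adjusted p = 0.00329). The CDT1 calls were lost with median scaling (log2 change 0.89 with LAV-BPIFB4, limma adjusted p = 0.0517, and 0.73 with WT-BPIFB4, limma adjusted p = 0.466) and without the intensity trend (limma adjusted p = 0.052 with LAV-BPIFB4 and 0.113 with WT-BPIFB4). CDC25A rose 1.36-fold with LAV-BPIFB4 (log2 change 0.44, SE 0.11, limma adjusted p = 0.0193). That call was lost in 5 of 19 alternatives: with median scaling (0.68, limma adjusted p = 0.163), without the intensity trend (limma adjusted p = 0.115), and when empty vector replicate 1, or LAV-BPIFB4 replicate 1 or 3, was left out (limma adjusted p 0.0579, 0.0723 and 0.124). Its change of 0.40 with WT-BPIFB4 was not called (limma adjusted p = 0.0785). Its other probe changed by 0.40 with LAV-BPIFB4 and was not called (limma adjusted p = 0.137). These were 2 of the 19 measured genes in the list of E2F targets, and the remaining 17, among them the helicase gene MCM7 (0.07 with LAV-BPIFB4, SE 0.09, limma adjusted p = 0.677), were not called. The median log2 change of that list was -0.10 with LAV-BPIFB4 and -0.01 with WT-BPIFB4.

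CDKN2A, whose alternative transcripts encode the CDK4 inhibitor p16 and the p53 regulator ARF, rose with LAV-BPIFB4. It read 9.24, 9.18 and 9.30 with LAV-BPIFB4, 8.63, 9.14 and 9.19 with WT-BPIFB4 and 8.0, 8.59 and 8.60 with the empty vector. The rise with LAV-BPIFB4 was 1.80-fold (log2 change 0.85, SE 0.18, limma adjusted p = 0.00781), and its other kept probe rose too (0.55, SE 0.16, limma adjusted p = 0.0363). The call of the representative probe was lost with median scaling (0.93, limma adjusted p = 0.0807) and without the intensity trend (limma adjusted p = 0.0754). With WT-BPIFB4 the change of 0.59 was not called (limma adjusted p = 0.113), but without WT-BPIFB4 replicate 1 it was 0.77 and called (limma adjusted p = 0.0121). Which of the 2 proteins' transcripts the probes read is not given in the sources used here. The other 5 CDK inhibitor genes, with CDKN1A (p21) at -0.28 with LAV-BPIFB4 (SE 0.20, limma adjusted p = 0.443), were not called.

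FOXO1, a transcription factor that growth factor signalling keeps out of the nucleus, read 7.72, 7.63 and 7.41 with LAV-BPIFB4, 7.90, 7.52 and 7.98 with WT-BPIFB4 and 8.38, 8.11 and 8.07 with the empty vector. It fell 1.52-fold with LAV-BPIFB4 (log2 change -0.60, SE 0.18, limma adjusted p = 0.047), and that call was lost in 10 of 19 alternatives, among them without each of the empty vector and each of the LAV-BPIFB4 arrays (limma adjusted p 0.0666 to 0.196). The other 10 measured genes of mitogen signalling to D cyclins and p27 were not called, MYC among them (-0.21 with LAV-BPIFB4, limma adjusted p = 0.414).

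The remaining lists had no call beyond CDC25A. The list of CDK activation and of p27 and cyclin turnover had 17 measured genes, including the p27 ubiquitin ligase subunit gene SKP2 (-0.27 with LAV-BPIFB4, limma adjusted p = 0.136), CDK2 (-0.17, limma adjusted p = 0.388) and the kinase chaperone gene CDC37 (0.08, limma adjusted p = 0.722). The 6 genes of the MuvB core and B-MYB had a median change of 0.28 with LAV-BPIFB4 and 0.31 with WT-BPIFB4 and no call. They did not share a direction. With LAV-BPIFB4 they ran from -0.55 for LIN9 (limma adjusted p = 0.0575) to 0.63 for MYBL2 (limma adjusted p = 0.139). The MYBL2 signal of 106 to 206 was near background. The MuvB core joins p107 or p130 to repress cell cycle genes in quiescence and B-MYB to activate them later. Its histone-binding gene RBBP4 stood at -0.09 with LAV-BPIFB4 (limma adjusted p = 0.691). The 5 genes of S, G2 and M cyclins and their kinase had medians of -0.06 and -0.17 and no call, with CCNA2 at -0.22 with LAV-BPIFB4 (limma adjusted p = 0.293).

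**Figure D4:**
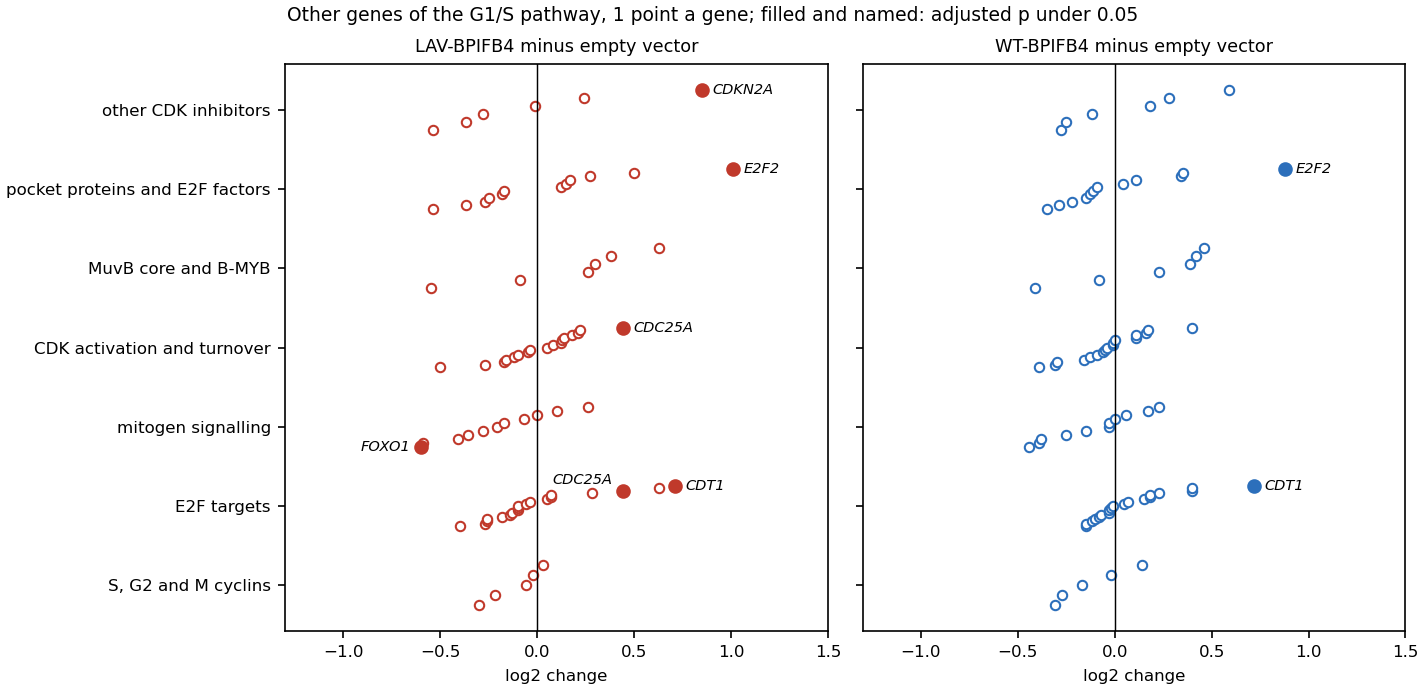
Log2 change of the measured genes of 7 G1/S pathway lists (rows, 1 point per gene) with LAV-BPIFB4 (left panel) and WT-BPIFB4 (right panel) against the same 3 empty vector arrays. Filled, named points have a limma adjusted p under 0.05. E2F2 (1.01 and 0.88) and CDT1 (0.71 and 0.72) are filled in both panels, and CDC25A stands in 2 lists.

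**Figure D5:**
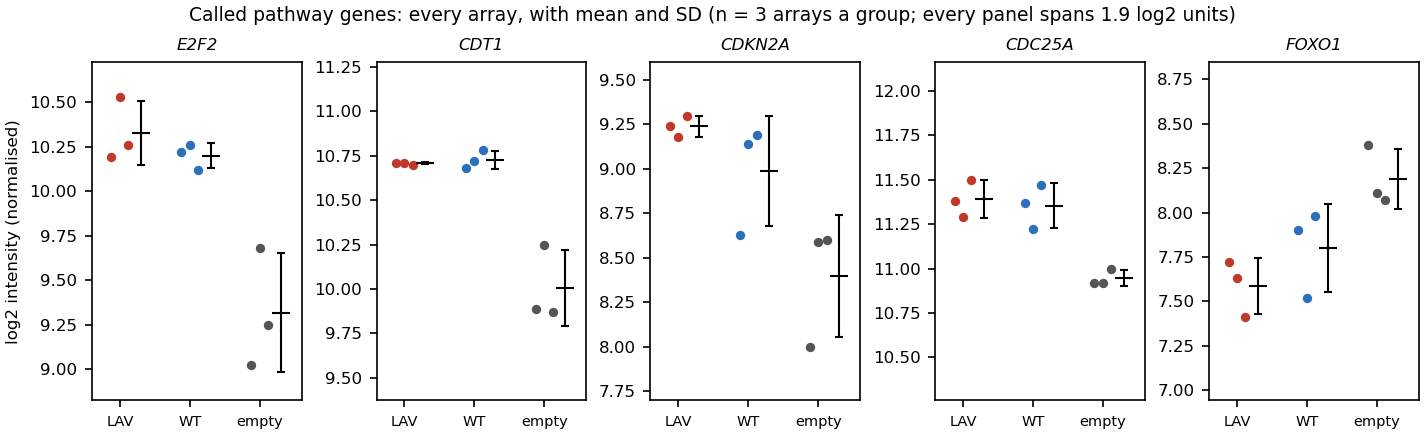
Normalised log2 intensity of the 5 called pathway genes on every array, with the groups LAV-BPIFB4, WT-BPIFB4 and empty vector from left to right. Points are arrays, and the black marks are the mean and SD of 3 arrays. The 6 BPIFB4 arrays lie above all empty vector arrays for E2F2, CDT1, CDKN2A and CDC25A, by as little as 8.63 against 8.60 for CDKN2A, and below them for FOXO1.

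The start regions of E2F2, CDT1 and CDC25A (250 bases before to 50 after the gene start, RefSeq, GRCh38.p14) are shown because each holds an E2F motif. The search and these 3 genes were chosen after their calls were seen. The motif was searched on both strands as TTTCCCGC, TTTCGCGC, TTTGCCGC or TTTGGCGC, which do not contain one another, and is given in capitals. It begins 42 bases before the start in E2F2, 44 in CDC25A and 35 in CDT1, where it is printed as its reverse complement.
E2F2, chr1:23531184-23531483, minus strand: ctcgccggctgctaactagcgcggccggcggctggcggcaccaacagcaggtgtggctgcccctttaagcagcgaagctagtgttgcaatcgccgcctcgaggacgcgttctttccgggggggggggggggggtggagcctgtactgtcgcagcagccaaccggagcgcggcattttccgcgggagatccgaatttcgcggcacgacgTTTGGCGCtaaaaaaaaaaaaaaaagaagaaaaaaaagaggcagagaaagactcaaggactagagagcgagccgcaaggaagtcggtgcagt
CDC25A, chr3:48188368-48188667, minus strand: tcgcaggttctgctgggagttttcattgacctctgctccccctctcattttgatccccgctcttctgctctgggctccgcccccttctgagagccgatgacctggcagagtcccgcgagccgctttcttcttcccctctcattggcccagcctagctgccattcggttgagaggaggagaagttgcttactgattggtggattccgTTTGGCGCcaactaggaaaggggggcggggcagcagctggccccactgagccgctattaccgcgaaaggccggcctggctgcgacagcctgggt
CDT1, chr16:88803539-88803838, plus strand: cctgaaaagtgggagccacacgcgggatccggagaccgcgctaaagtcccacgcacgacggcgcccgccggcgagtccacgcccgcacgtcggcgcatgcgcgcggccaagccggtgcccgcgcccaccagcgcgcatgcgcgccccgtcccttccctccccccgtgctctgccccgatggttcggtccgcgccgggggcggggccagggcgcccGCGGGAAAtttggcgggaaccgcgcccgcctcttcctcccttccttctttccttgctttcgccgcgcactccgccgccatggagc

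Of all 35116 start regions, 3.31% hold this motif. It was found in none of the 2 regions of CDKN2A and in 0 of the 12 regions available for 7 members, which says only that these letters are not in these windows. No region was available for CCND1, CCND2 or CCNE2, so CCND2, the called member, was not searched. Of 17 genes in the list of E2F targets with a region, 10 held the motif, and 2 of those 10, CDT1 and CDC25A, rose with LAV-BPIFB4. MCM7, PCNA and TYMS held it as well and were not called. For PCNA the representative probe changed by -0.40 with LAV-BPIFB4 (limma adjusted p = 0.073) and its other kept probe by 0.58 (limma adjusted p = 0.0668). Of the 4 pathway genes with a region that rose with LAV-BPIFB4, 3 held the motif. Whether the motif bears on the calls was not tested.

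Among the genes reported in HEK293 cells, vimentin (VIM) fell 1.53-fold with LAV-BPIFB4 (limma adjusted p = 0.000871) and 1.44-fold with WT-BPIFB4 (limma adjusted p = 0.00828), and LIN28B, an RNA-binding protein gene, fell 1.42-fold with LAV-BPIFB4 (limma adjusted p = 0.0137). With median scaling these 3 calls were lost, the log2 changes being -0.28 for VIM with LAV-BPIFB4 (limma adjusted p = 0.632), -0.41 for VIM with WT-BPIFB4 (limma adjusted p = 0.839) and -0.29 for LIN28B with LAV-BPIFB4 (limma adjusted p = 0.672). They were also lost without the intensity trend (limma adjusted p = 0.0537, 0.171 and 0.101 in the same order). The VIM call with WT-BPIFB4 was lost as well without WT-BPIFB4 replicates 2 or 3 (limma adjusted p 0.0504 and 0.0702), and the LIN28B call without empty vector replicate 3 or LAV-BPIFB4 replicates 2 or 3 (limma adjusted p 0.0564 to 0.0689). The other 5 measured genes of that list were not called. The part of these changes in those of CCND2, E2F2, CDT1 and CDKN2A was not tested. As the arrays read whole cultures, fewer expressing cells and less RNA per cell cannot be told apart for any gene named here.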

How the data were processed

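HEK293T RNA of 3 groups was hybridised to Illumina bead arrays, 3 arrays per group. Per the file headers, the deposited non-normalized table gives each array's intensity for every probe beside its detection p-value. The software named in the submitters' processing notes is BeadStudio. A second deposited table holds intensity values of unstated normalization. Its 6 WT-BPIFB4 and empty vector columns are linear in the same arrays, and its LAV-BPIFB4 columns match none, so it served as an alternative. The squared correlation of each LAV-BPIFB4 column with its own array was 0.971 to 0.978. The 2 deposited tables thus differ on the LAV-BPIFB4 samples, and which of them holds the intended values was not settled. Every LAV-BPIFB4 result not marked as an alternative rests on the non-normalized table.

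The neqc function of limma 3.58.1 (R 4.3.3) corrected the background through the detection p-values, added an offset of 16, quantile-normalized and took log2. The filter kept 20914 probes, those detected (p under 0.05) on 3 or more arrays, and 15778 of them had 1 gene symbol. The platform annotation gives 30105 probes 1 symbol, 8 several and 17197 none. The 3 group means were estimated in a single model (lmFit, eBayes with intensity trend, two-sided, F-test over the groups), with Benjamini-Hochberg adjustment over all kept probes and calls at an adjusted p under 0.05. The number of arrays limits the precision. The fit was also run on simulated data with independent noise on every array. That simulation held no replicate or chip-position structure, so it does not show how the fit behaves under such structure.

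The members, the 7 pathway lists and the 2 marker lists were chosen with earlier results of these data known. Named were all members, the called genes of each list (up to 4), the gene with the highest mean in each list, and the 3 genes most correlated with the member of smallest F-test p. Genes given beyond that rule (E2F1, E2F3, E2F7, RBL1, RBL2, SKP2, CDK2, LIN9, MYBL2, PCNA, TYMS) were chosen after their values were seen. Alternatives covered the background, offset, scaling, input table, filter, variance trend, array weights, samples fitted, replicate block, probe rule and each array left out.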

Additional observations from a re-analysis of the deposited data

How the results depend on the processing

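The member count of 1 for LAV-BPIFB4 against the empty vector became 0 with median scaling, without the intensity trend and with the value table, and stayed 1 without any 1 array. For WT-BPIFB4 against the empty vector 0 became 1 (CCND2) with array weights, and was 0 to 1 with 1 array left out. LAV-BPIFB4 against WT-BPIFB4 stayed at 0. The F-test's 1 became 0 with median scaling, without the trend and with the value table, and was 0 to 1 with 1 array left out.

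Over all kept probes, the 1615 calls for LAV-BPIFB4 against the empty vector became 2962 with array weights, 243 (205 higher, 38 lower) with median scaling, 923 without the filter, 210 without the trend, 911 with the value table, and 486 to 2545 with 1 array left out. The 224 for WT-BPIFB4 became 1120 with weights, 52 (38 higher, 14 lower) with median scaling, 105 without the filter, 31 (27 higher, 4 lower) without the trend, 87 in a fit of those 2 groups, and 68 to 1592 with 1 array left out. LAV-BPIFB4 against WT-BPIFB4 gave 1 with weights, 4 with median scaling, and 0 to 0 with 1 array left out. The 821 of the F-test became 2295, 171, 445, 56 and 522 with weights, median scaling, no filter, no trend and the value table, and 246 to 2132 with 1 array left out. The causes were not tested.

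With the replicate number as a block, the calls were 2740, 829 and 17 for the comparisons of LAV-BPIFB4 and WT-BPIFB4 with the empty vector and with each other, and 1924 for the F-test. CDKN2A and CDC25A were then called with WT-BPIFB4 (limma adjusted p = 0.0238 and 0.0246). Same-numbered arrays had deviations correlated at 0.00 to 0.22. Differently numbered arrays were not compared in this way, so whether the numbers pair the samples was not settled. On the second principal component (15.2% of the variance) the replicate 1 arrays lay at 7.6 (empty vector), 19.7 (WT-BPIFB4) and 20.8 (LAV-BPIFB4). In the same order, the replicate 2 arrays lay at -30.1, -19.4 and -13.4, and the replicate 3 arrays at 16, -5.25 and 4.07.

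Median scaling moved the median change of all kept probes to 0.08 for LAV-BPIFB4 and -0.03 for WT-BPIFB4 against the empty vector and 0.13 between them. It turned the sign of CDK4 (0.21 with LAV-BPIFB4, 0.01 with WT-BPIFB4, 0.20 between them), of the other CDKN1B probe with LAV-BPIFB4 (0.01), and, between LAV-BPIFB4 and WT-BPIFB4, of CCND3 (0.16), CDT1 (0.16), VIM (0.14) and LIN28B (0.02). The value table turned CDK6 with LAV-BPIFB4 (0.04) and, between the 2 forms, the other CCND2 probe (0.02), CCND3 (0.00) and VIM (0.06). Array weights turned CCND1 (-0.04) and CCND3 (0.02) between the 2 forms, and the mean of both probes put CDKN1B with LAV-BPIFB4 at 0.00.

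With 1 array left out, signs turned for CCND1 (-0.05 to 0.22 with LAV-BPIFB4, -0.01 to 0.20 with WT-BPIFB4), the CDKN1B representative probe (-0.08 to 0.13 and -0.13 to 0.08) and its other probe with LAV-BPIFB4 (-0.17 to 0.08). Between the 2 forms they turned for CCND1 (-0.13 to 0.15), CCND3 (-0.04 to 0.06), CDK4 (-0.08 to 0.05), the CDKN1B representative probe (-0.04 to 0.14), RB1 (-0.48 to 0.04), CDC25A (-0.03 to 0.09) and CDT1 (-0.04 to 0.01). No other direction turned, and none of these 37 turned values was called. Of the other values, which include the means of both probes for CCND2 and CDKN1B, 894 kept direction and side of the threshold, 37 lost a call and 7 gained one. Signal near background limits RB1, and CCNE2 has no measured change.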

Other observations

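Among the 74 measured pathway genes, 33 further kept probes did not represent their gene, and in the comparison of LAV-BPIFB4 with the empty vector 4 of the 33 were called, for CDKN2A, CKS1B, CTNNB1 and FBXW7, beside 7.72% of all kept probes. CKS1B, CTNNB1 and FBXW7 were singled out after their values were seen. CTNNB1, the gene of beta-catenin, a co-activator of D cyclin transcription, averaged 9.05 ± 0.22 with LAV-BPIFB4, 9.62 ± 0.12 with WT-BPIFB4 and 9.64 ± 0.08 with the empty vector on this probe (log2 intensity, SD, n = 3 each). It was 1.5-fold lower with LAV-BPIFB4 (log2 change -0.59, SE 0.14, limma adjusted p = 0.0152) and differed by -0.02 with WT-BPIFB4 (limma adjusted p = 0.97). LAV-BPIFB4 differed from WT-BPIFB4 by -0.57 with an unadjusted p of 0.000575 and a limma adjusted p of 0.75. The representative probe of CTNNB1 changed by -0.41 with LAV-BPIFB4 and was not called (limma adjusted p = 0.0699). On that probe the change was -0.15 with WT-BPIFB4 (limma adjusted p = 0.643). LAV-BPIFB4 and WT-BPIFB4 overlapped there and differed by -0.26 (limma adjusted p = 0.972).

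FBXW7, the gene of the ubiquitin ligase subunit that marks cyclin E for degradation, averaged 8.17 ± 0.09 with LAV-BPIFB4, 8.20 ± 0.12 with WT-BPIFB4 and 8.78 ± 0.16 with the empty vector on its called probe. It was 1.52-fold lower with LAV-BPIFB4 (limma adjusted p = 0.0231), while its representative probe changed by -0.10 (limma adjusted p = 0.747). With WT-BPIFB4 the called probe changed by -0.57, below all empty vector arrays but without a call (limma adjusted p = 0.0785). A further kept FBXW7 probe, detected on 6 arrays, changed by -0.26 with LAV-BPIFB4 (limma adjusted p = 0.716). CKS1B, a cofactor of SKP2 in p27 degradation, was 1.31-fold higher with LAV-BPIFB4 on its called probe (limma adjusted p = 0.0396), and its representative probe changed by 0.18 (limma adjusted p = 0.281). With WT-BPIFB4 the called CKS1B probe changed by 0.32 (limma adjusted p = 0.163).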
